A study of Mus musculus with 11 samples.

Results

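The MHC class II presentation genes were followed here in RNA from mouse livers carrying hepatocellular carcinoma. They were 8 genes taken by name from the gene table, which lists 43346 genes: H2-Aa, H2-Ab1, H2-Eb1, Cd74, Ciita, H2-DMa, H2-DMb1 and Ctss. All 8 passed the filter on low counts, which left 17610 genes for testing. The mice were of the FVB/NJ strain, and tumours were induced by expression of the receptor tyrosine kinase MET together with β-catenin. The labels give all 11 libraries as liver and name the antibody anti-PD-1, which blocks the T cell checkpoint receptor PD-1, as the treatment. By the response label, 6 libraries came from responders, 4 from non-responders, and 1 from a mouse listed as not treated, although its treatment label also names the antibody. The labels give no age and no vehicle group, and they do not say whether a library holds tumour, surrounding liver or both. They also do not tie the libraries to separate mice, so each p-value reflects the spread among these libraries alone.

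MHC class II molecules are dimers of an alpha and a beta chain that present peptides from the endocytic pathway to CD4+ T cells. In mice, H2-Aa and H2-Ab1 encode the I-A chains and H2-Eb1 the I-E beta chain. The invariant chain, Cd74, escorts new dimers to the endosome, where the protease cathepsin S (Ctss) trims it, and the H2-DM dimer (H2-DMa, H2-DMb1) exchanges the remaining fragment for peptide. Ciita is the transactivator that assembles on class II promoters. It is active in dendritic cells, B cells and macrophages, and interferon-gamma induces it in many other cells. Mice of some haplotypes, among them the one that FVB carries, lack surface I-E.

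The promoters below show the motifs through which transcription factors are known to act on these genes. Class II promoters hold an X box and, nearer the gene, a Y box, bound by the RFX complex and by NF-Y, and Ctss is a known interferon target. The searches on both strands used GNAACT for the X-box core, TGATTGG for the Y-box core and a pair of GAAA with 2 free bases between them for the interferon-stimulated response element, and these letters were chosen after the promoters had been read. The sequences are the bases before the RefSeq start in GRCm38.p6, a C57BL/6J reference and not the FVB/NJ genome, cut where an exon of the same gene begins. H2-Aa lies at chr17:34287828-34288073 on the minus strand, H2-Eb1 at chr17:34305617-34305866 on the plus strand and Ctss at chr3:95526536-95526785 on the plus strand. Each is written 5′ to 3′ along its gene, and capitals mark every match on either strand.
H2-Aa: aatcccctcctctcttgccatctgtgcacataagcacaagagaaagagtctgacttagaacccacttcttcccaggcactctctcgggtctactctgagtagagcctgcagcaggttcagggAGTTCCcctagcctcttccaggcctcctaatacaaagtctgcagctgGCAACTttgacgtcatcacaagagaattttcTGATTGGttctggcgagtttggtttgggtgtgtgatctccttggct
H2-Eb1: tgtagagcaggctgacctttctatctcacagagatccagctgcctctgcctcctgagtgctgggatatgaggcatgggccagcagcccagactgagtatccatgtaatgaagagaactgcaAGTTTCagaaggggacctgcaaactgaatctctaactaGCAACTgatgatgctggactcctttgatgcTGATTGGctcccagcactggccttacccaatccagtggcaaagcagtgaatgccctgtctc
Ctss: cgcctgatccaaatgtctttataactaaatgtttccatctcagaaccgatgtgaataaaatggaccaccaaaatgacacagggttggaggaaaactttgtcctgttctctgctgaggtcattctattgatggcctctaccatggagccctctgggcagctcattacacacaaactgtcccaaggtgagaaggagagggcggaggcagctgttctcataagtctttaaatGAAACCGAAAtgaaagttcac
In H2-Aa an X-box core stood 25 bases before the Y-box core, and in H2-Eb1 the gap was 24 bases. H2-DMb1 had the same pair with a gap of 25 bases, within bases that an exon of the gene covers, so its sequence is not shown. A pair with a gap of 15 to 35 bases was present in 57 of 32851 promoters, or 0.174%. The Y-box core, with or without an X-box core, was in 7.23% and the X-box core in 37.3% of promoters. Ctss held no such pair but 1 interferon-stimulated response element, a motif found in 2.98% of promoters. Of the 8 genes, 5 matched the promoter table. Among them was H2-DMa, whose listed starts lie far upstream of the gene, so no promoter of it is given. Cd74, Ciita and H2-Ab1 did not match. These are matches of letters in a reference sequence and not measured binding. Since the letters were chosen after the promoters had been read, these shares do not test the matches.

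Total gene counts ran between 17876515 and 40565708 in responders and between 25542066 and 39941835 in non-responders, with 49884800 in the untreated library. Levels are given as CPM, read counts scaled to library depth, after TMM scaling, a correction for differences in library composition. A pair of libraries stood apart. Responder 3 had the highest level of 7 of the 8 class II genes among the 10 treated libraries, and likewise of all 14 Kupffer cell and macrophage markers and all 8 pan-leukocyte markers. Over all tested genes, responder 3 was highest for 8.19%. In non-responder 1 the reads gathered at the last exon: exon 9 of Cd74 held 63.0% of its exon reads there, against 22.2% to 25.1% in the other treated libraries. The numbers in the titles, whose meaning the labels do not give, ran between 1 and 29 in responders and between 26 and 37 in non-responders.

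None of the 8 class II genes passed the test between responders and non-responders (edgeR quasi-likelihood test, Benjamini-Hochberg adjusted p of at least 0.395). By the same test 723 genes were higher in responders, 4.11% of those tested, and 1025 were lower, 5.82%, which makes 9.93% in either direction. None of the 8 had an unadjusted p under 0.05, against 27.3% of all genes. DESeq2 and limma-voom also called none, while limma-voom with quality weights called H2-DMb1 lower. That last fit called 2021 genes of the whole table lower, against 1025 in the edgeR fit. The levels of all 8 overlapped between the groups, whereas 11.3% of tested genes did not overlap. The median log2 fold change was -0.10 over the 8 genes and -0.02 over all genes tested. In whole tissue, fewer cells of a type and less RNA per cell cannot be told apart.

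**Figure D1:**
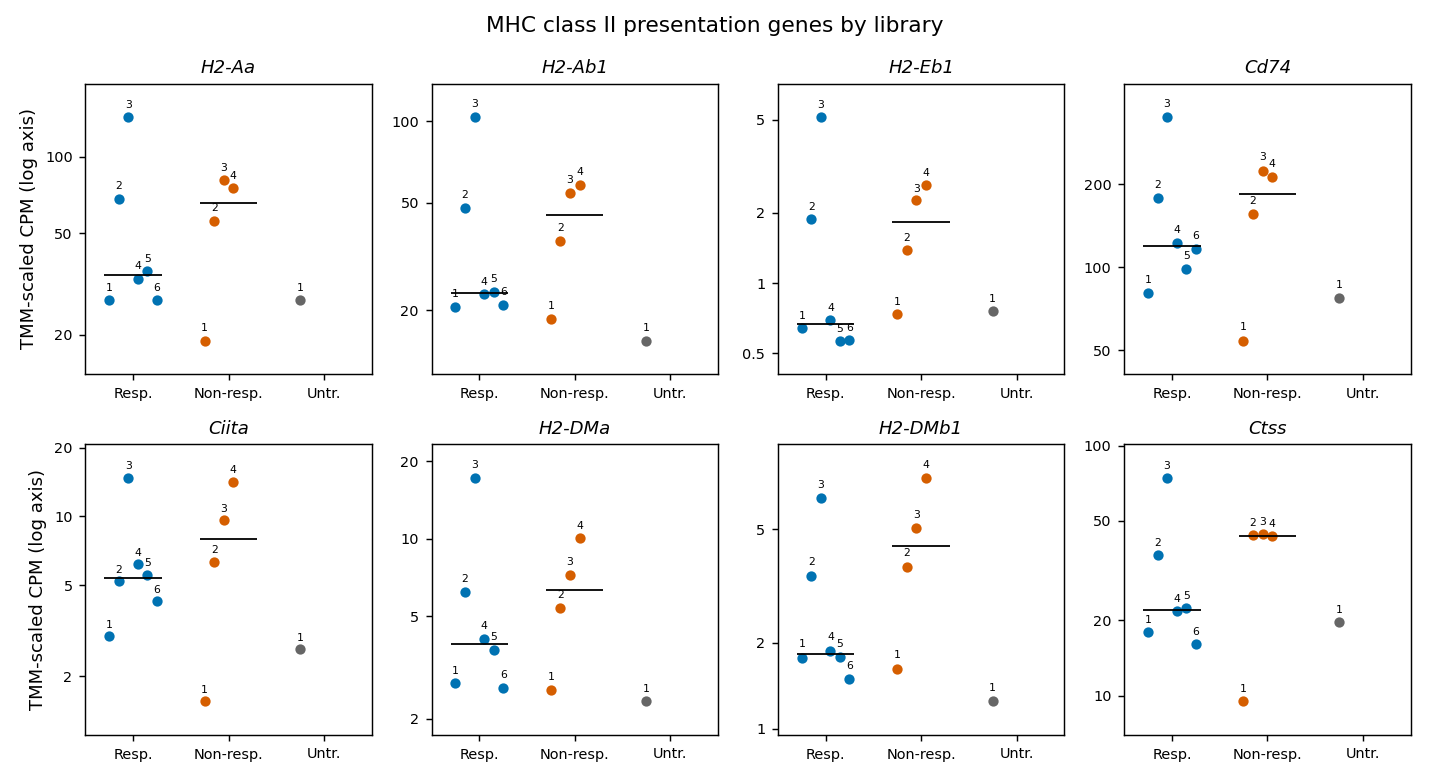
TMM-scaled CPM on a log axis for each class II gene, with 1 numbered point per library and a line at the median of each group with several libraries. Responder 3 sits above the other responders in every panel, and non-responder 1 sits below the other non-responders in every panel.

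Ciita (ENSMUSG00000022504, chr16:10488178-10527564, plus strand) was the transactivator of the set and was scarce. In responders it had a lowest level of 2.98, a median of 5.37 and a highest level of 14.7 CPM. The 4 non-responders had 1.55, 6.31, 9.62 and 14.2 CPM, and the untreated library had 2.62 CPM. The highest library of each group was alike, and the lowest of all was non-responder 1. The log2 fold change of responders over non-responders was -0.29 (95% interval -1.48 to 0.90, edgeR adjusted p = 0.772). The first exon of the Ciita transcript held 24 reads over all libraries, or 97.2 per kb, and none in 3 of them, while exon 2 held 605 reads per kb. Ciita overlaps Dexi on the other strand, and since the strand setting of the counting is not given in the sources used here, some reads may belong to either gene.

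The I-A chains had more reads than the other class II chains, also by RPKM. H2-Aa (ENSMUSG00000036594, chr17:34282744-34287827, minus strand) had a lowest level of 27.4, a median of 34.4 and a highest level of 143 CPM in responders. The 4 non-responders had 19.0, 56.1, 80.7 and 75.1 CPM, and the untreated library had 27.4 CPM. Responders 1, 4, 5 and 6 lay close together at the low end, with responder 2 among the non-responders and responder 3 above every other library. The log2 fold change was -0.05 (95% interval -1.25 to 1.15, edgeR adjusted p = 0.967).

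H2-Ab1 (ENSMUSG00000073421, chr17:34263209-34269418, plus strand) had a like course, with a lowest level of 20.5, a median of 23.1 and a highest level of 104 CPM in responders. The non-responders had 18.6, 35.99, 54.3 and 58.4 CPM. The untreated library, at 15.4 CPM, was below all 10 treated libraries. The log2 fold change was -0.07 (95% interval -1.21 to 1.08, edgeR adjusted p = 0.951).

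H2-Eb1 (ENSMUSG00000060586, chr17:34305877-34316199, plus strand), the I-E beta chain, was scarce. In responders it had a lowest level of 0.567, a median of 0.671 and a highest level of 5.13 CPM. The non-responders had 0.738, 1.39, 2.26 and 2.62 CPM, and the untreated library had 0.757 CPM. In all, 345 reads of the 6 responders and 264 of the 4 non-responders fell on the gene. For H2-Eb1 the log2 fold change was -0.13 (95% interval -1.58 to 1.32, edgeR adjusted p = 0.923).

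Cd74 (ENSMUSG00000024610, chr18:60803848-60812646, plus strand), the invariant chain, had a lowest level of 80.6, a median of 120 and a highest level of 351 CPM in responders. The non-responders had 54.3, 156, 224 and 212 CPM, and the untreated library had 77.3 CPM. It averaged 158 ± 99.99 CPM in responders and 162 ± 77.6 CPM in non-responders (SD, n = 6 and 4). The log2 fold change was -0.03 (95% interval -1.04 to 0.97, edgeR adjusted p = 0.973).

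Ctss (ENSMUSG00000038642, chr3:95526786-95556403, plus strand), which cuts the invariant chain, had a lowest level of 16.1, a median of 22.1 and a highest level of 74.2 CPM in responders. The non-responders had 9.49, 43.9, 44.2 and 43.4 CPM, and the untreated library had 19.7 CPM. Non-responders 2, 3 and 4 lay within 1 CPM of each other, with non-responder 1 far below them and responder 3 far above. For Ctss the log2 fold change was -0.16 (95% interval -1.29 to 0.97, edgeR adjusted p = 0.873).

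The H2-DM chains were scarce next to the I-A chains. H2-DMa (ENSMUSG00000037649, chr17:34135182-34139101, plus strand) had a lowest level of 2.63, a median of 3.89 and a highest level of 17.2 CPM in responders. The non-responders had 2.58, 5.39, 7.24 and 10.03 CPM, and the untreated library, at 2.33 CPM, was below all of them. Between the groups the log2 fold change of H2-DMa was -0.05 (95% interval -1.27 to 1.18, edgeR adjusted p = 0.970).

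H2-DMb1 (ENSMUSG00000079547, chr17:34153072-34160230, plus strand) had a lowest level of 1.49, a median of 1.83 and a highest level of 6.43 CPM in responders. The non-responders had 1.62, 3.70, 5.03 and 7.56 CPM, and the untreated library, at 1.25 CPM, was again the lowest. It was the class II gene whose highest library was non-responder 4 and not responder 3, and its log2 fold change of -0.67 was the farthest from 0 of the 8 (95% interval -1.72 to 0.37, edgeR adjusted p = 0.395). Of the 31-base stretches of its transcript, 37.6% also occur in the neighbouring paralog H2-DMb2, so reads of both genes may have been divided between them by a rule not given in the sources used here. For the other 7 genes the shared part was at most 1.84%.

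Responder 3 weighed on every one of these values. Without it, the log2 fold changes ran between -1.12 for H2-DMb1 and -0.44 for Cd74, and none of the 8 passed (edgeR adjusted p of at least 0.112). Without both responder 3 and non-responder 1, a setting chosen after the data were seen, H2-DMb1 was lower in responders at -1.40 (edgeR adjusted p = 0.0338) and Ctss at -0.94 (edgeR adjusted p = 0.0448), while Ciita was at -1.07 (edgeR adjusted p = 0.0514). Since responder 3 was the highest library for most of these genes and non-responder 1 the lowest, leaving out both moves the groups apart by construction. In that fit 811 genes of the whole table were lower.

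The single untreated library was below all 10 treated libraries for 3 of the 8 genes, H2-Ab1, H2-DMa and H2-DMb1. Over all tested genes it was below all treated libraries for 7.98% and above all of them for 8.17%, and it was above all for none of the 8. With 1 library there is no test. For H2-Aa, H2-Eb1, Cd74, Ciita and Ctss the untreated library lay inside the treated range, at place 2 of 11 from the low end for Cd74 and Ciita, 3 for H2-Aa, 4 for Ctss and 6 for H2-Eb1.

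Per unit of the coding length that the authors list, the 8 genes kept a nearly fixed order in every library. That length need not be the length of the main transcript. For H2-Aa it is 1874 and for H2-Ab1 1637 bases, while the exons of their transcripts sum to 1132 and 1211 bases. For Ctss it is 1358 bases and the sum 1355 bases, so the order of H2-Aa, H2-Ab1 and Ctss rests partly on the listed lengths. By the authors' deposited RPKM, a read count scaled to this length and to depth, Cd74 was first in all 11 libraries, at 78.2 ± 56.1 in responders and 80.1 ± 35.95 in non-responders (SD, n = 6 and 4). H2-Aa followed at 20.9 ± 18.8 RPKM in responders and 21.5 ± 9.73 RPKM in non-responders, and H2-Ab1 at 17.1 ± 15.6 RPKM in responders and 17.9 ± 7.21 RPKM in non-responders. Ctss had 16.2 ± 12.8 RPKM in responders and 18.2 ± 8.57 RPKM in non-responders. These 3 exchanged places 2 to 4 between libraries, and their spreads overlap. H2-DMa held place 5 and H2-DMb1 place 6 in all 11 libraries, with H2-DMa at 2.63 ± 2.65 RPKM in responders and 2.69 ± 1.27 RPKM in non-responders, and H2-DMb1 at 1.31 ± 1.01 RPKM in responders and 2.11 ± 1.13 RPKM in non-responders. H2-Eb1 and Ciita shared the last places, with 0.951 and 0.865 RPKM in responders and 1.03 and 1.05 RPKM in non-responders.

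The 8 genes varied together from library to library. Between the highest and the lowest treated library the CPM differed by 5.08-fold for H2-DMb1, the least, and by 9.51-fold for Ciita, the most. Among responders the coefficient of variation was between 63.3% and 91.9% for the 7 genes other than H2-Eb1, while the median over the 12697 genes with an average log2 CPM of 1 or more, to which these 7 belong, was 13.02%. H2-Eb1, below that level, had 114%. Without responder 3 the 7 genes lay between 25.7% and 44.6% and H2-Eb1 at 65.2%, against a median of 12.7%. Pearson's r of log2 CPM over the 10 treated libraries lay between 0.761, for H2-Eb1 with Ciita, and 0.983, for H2-Aa with H2-Ab1, with a median of 0.930 over the 28 pairs. Spearman's rho lay between 0.709 and 0.976. All 28 pairs passed after Benjamini-Hochberg adjustment, with adjusted permutation p-values of at most 0.0102 for r and 0.0267 for rho. The smallest raw permutation p was 1e-05, the smallest that 100000 resamples can give.

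Without the 2 libraries farthest from the median, r lay between 0.524 and 0.988, and the lowest was again H2-Eb1 with Ciita. Without responder 3 it lay between 0.675 and 0.974. Among the 6 responders alone r lay between 0.809 and 0.996, and the 4 non-responders were too few for a value. The I-A chains were the tightest pair: the H2-Aa to H2-Ab1 ratio was 1.402 ± 0.0789 in responders and 1.34 ± 0.240 in non-responders (SD, n = 6 and 4), and 1.77 in the untreated library.

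**Figure D2:**
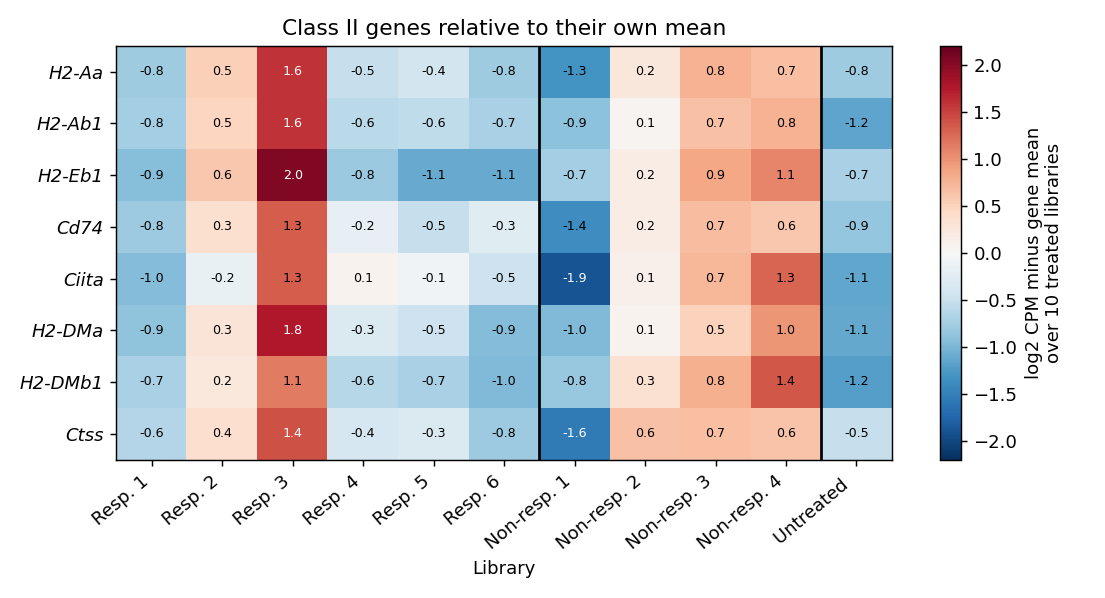
log2 CPM of each class II gene (rows) minus the mean of that gene over the 10 treated libraries, in each library (columns), with red above and blue below the mean. Responder 3 is above the mean for all 8 genes and non-responder 1 is below it for all 8, while responders 1, 5 and 6 are below it throughout.

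The relative amounts of the class II genes were compared within libraries through 10 ratios, which need no scaling between libraries. None passed after Benjamini-Hochberg adjustment (two-sided exact permutation test, 210 splits), and 2 had an unadjusted exact p of 0.019. H2-DMa stood at 1.999 ± 0.398 times H2-DMb1 in responders and at 1.45 ± 0.106 times in non-responders (SD, n = 6 and 4), with 1.86 in the untreated library. The log2 difference was 0.44 (exact permutation p = 0.019, adjusted p = 0.0952). The values overlapped, with responder 1 at 1.54 and non-responder 1 at 1.58.

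The other was the ratio of Cd74 to Itgax, the CD11c integrin of dendritic cells and other myeloid cells. It ran between 83.2 and 800 in responders and between 32 and 66.7 in non-responders, without overlap, and was 154 in the untreated library. The log2 difference was 1.54 (exact permutation p = 0.019, adjusted p = 0.0952), and 1.03 without responder 1, where Itgax was at 0.0806 CPM. On the authors' deposited RPKM with a pseudocount of 0.1 the difference was 0.92 and passed (exact permutation, adjusted p = 0.0476, the smallest that a single ratio can reach). Itgax by itself stood at -1.08 on the log2 scale and did not pass (edgeR adjusted p = 0.305). Its levels overlapped between the groups, with responder 3 at 4.06 CPM and non-responder 1 at 1.26 CPM. Over the 11 tested dendritic cell genes, Itgax among them, the median was -0.19 on that scale, and none passed.

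The ratio of Cd74 to Ptprc, the leukocyte common antigen CD45, was 9.34 ± 1.92 in responders, 9.53 ± 2.04 in non-responders (SD, n = 6 and 4) and 7.22 in the untreated library. Between the highest and the lowest treated library it differed by 1.73-fold, while Cd74 itself differed by 6.46-fold. In non-responder 1, which had the lowest Cd74, Ptprc was also lowest, at 4.87 CPM. The log2 difference between the groups was -0.03 (exact permutation p = 0.933).

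**Figure D3:**
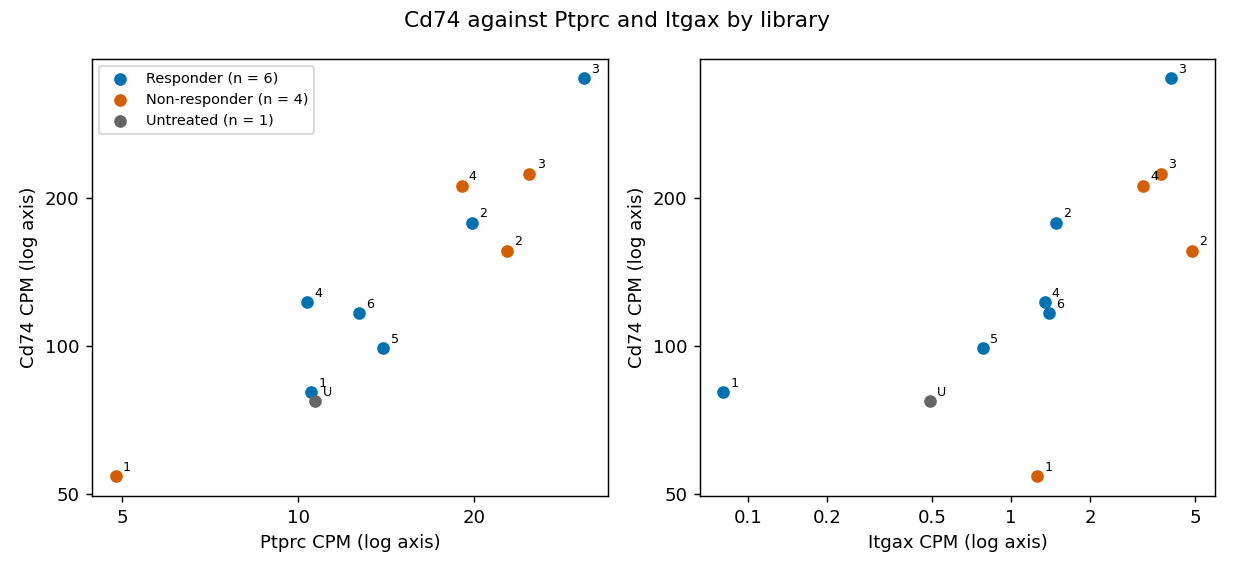
Cd74 CPM against Ptprc CPM (left) and Itgax CPM (right), both axes logarithmic, with 1 numbered point per library and U for the untreated one. Cd74 and Ptprc are high and low in the same libraries, with the groups mixed, whereas at like Cd74 the non-responders lie at higher Itgax than the responders.

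The level of the 8 genes moved with leukocyte markers. The mean of their log2 CPM had r = 0.96 and rho = 0.93 with that of 8 pan-leukocyte genes over the 10 treated libraries. With that of 14 Kupffer cell and macrophage genes it had r = 0.85 and rho = 0.87. For 11 dendritic cell genes r was 0.75 and rho 0.68, for 8 T cell genes 0.73 and 0.83, and for 8 sinusoidal endothelium genes 0.68 and 0.75. For 8 B cell genes r was 0.27 and rho 0.16, and for 8 hepatocyte genes 0.00326 and 0.02. Being a score over chosen genes, it carries no p, and the 7 relations were added after the data were seen. Without the 2 farthest libraries r was 0.93 for the pan-leukocyte and 0.80 for the Kupffer cell and macrophage genes.

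The lists themselves were read in the same edgeR fit, whose background was 4.11% higher and 5.82% lower. None of the 8 pan-leukocyte, 14 Kupffer cell and macrophage or 11 dendritic cell genes passed, with 1, 0 and 1 of them at an unadjusted p under 0.05, and none passed by DESeq2 or limma-voom. An unadjusted p under 0.05 was found for 27.3% of all genes. Without responder 3, 1 pan-leukocyte and 1 dendritic cell gene passed, and without both responder 3 and non-responder 1, 3 pan-leukocyte genes and 1 Kupffer cell and macrophage gene did. Over all genes these fits called 377 and 566 higher and 619 and 811 lower, in that order. The summed CPM of the Kupffer cell and macrophage list ran between 273 and 885 in responders and between 126 and 615 in non-responders, with 407 in the untreated library. The pan-leukocyte sum ran between 138 and 253 in responders and between 65.0 and 174 in non-responders, with 168 in the untreated library. Lcp1 alone averaged 120 CPM in responders and 76.8 CPM in non-responders, while the median log2 fold change of the list was -0.21. The dendritic cell sum ran between 20.5 and 41.1 in responders and between 23.5 and 32.9 in non-responders, with 17.5 in the untreated library. No marker on any of these lists was at 0 in every library. In these lists and those of B cells, T cells, endothelium and hepatocytes, the part these cells had in the class II levels was not tested.

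Lymphocyte lists gave 1 call each. Blnk, a B cell adaptor, had 2.47 ± 1.49 CPM in responders and 7.44 ± 3.71 CPM in non-responders (SD, n = 6 and 4), which is -1.60 on the log2 scale (edgeR adjusted p = 0.0424). Trac, the T cell receptor alpha constant region, had 0.296 ± 0.123 CPM in responders and 0.876 ± 0.446 CPM in non-responders, which is -1.57 on the log2 scale (edgeR adjusted p = 0.0427). The other 7 B cell and 7 T cell genes did not pass. The summed B cell list ran between 6.21 and 15.04 CPM in responders and between 12.7 and 27.1 CPM in non-responders, with 6.75 CPM in the untreated library. The summed T cell list ran between 4.59 and 9.78 CPM in responders and between 4.10 and 14.04 CPM in non-responders, with 3.91 CPM in the untreated library. Blnk missed the threshold in 7 and Trac in 8 of the 10 fits without 1 library, in both cases also without responder 3.

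Of 8 sinusoidal endothelium genes, Lyve1 was lower in responders, with 3.80 ± 0.960 CPM there and 10.3 ± 3.25 CPM in non-responders (SD, n = 6 and 4, edgeR adjusted p = 0.0149). The other 7 did not pass, and the median log2 fold change of the list was 0.31, higher in responders. Of 8 hepatocyte genes, Tat and Cps1 were higher in responders by 1.25 and 1.59 on the log2 scale and Apoa1 was lower, at -1.11 (edgeR adjusted p = 0.0367, 0.0462 and 0.0248). The summed endothelium list ran between 297 and 522 CPM in responders and between 185 and 434 CPM in non-responders, with 439 CPM in the untreated library. The summed hepatocyte list ran between 68267 and 81386 CPM in responders and between 94455 and 122808 CPM in non-responders, without overlap. It was 70204 CPM in the untreated library. The sum is carried by the most abundant genes, and the median log2 fold change of the list was 0.42, higher in responders. Lyve1 missed the threshold without non-responder 2, and Tat, Cps1 and Apoa1 in 7, 7 and 4 of the 10 fits without 1 library.

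The genes most like the class II set in their course over the 10 treated libraries were ranked among 11416 candidates. The rank was by r with the mean of the set's log2 CPM, each gene first brought to the same mean and spread. First was Mir5107 at 0.97, whose locus lies inside Cd74 on the same strand, so that the counts may be those of Cd74. Then came Itgb2, the common beta chain of the leukocyte integrins, at 0.96, the interferon-induced GTPase Gbp5 at 0.96, Tlr12 at 0.96 and Laptm5 at 0.96. Hcls1, Rac2, Nckap1l, Arhgap30 and Cd180 followed, down to 0.95. Without responder 3 the r of these 10 lay between 0.92 and 0.96.

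In the list of the interferon-gamma pathway, Ifngr1, Irf1, Socs1 and Nlrc5 were lower in responders. These were 4 of 10 tested genes, while 5.82% of all tested genes were lower, and none was higher. The median log2 fold change was -0.45 over the list and -0.02 over all genes. Interferon-gamma itself (Ifng) was too scarce to test. Nlrc5, the transactivator of class I genes and a relative of Ciita that does not act upstream of it, had a lowest level of 18.5, a median of 28.1 and a highest level of 40.3 CPM in responders, and 86.6, 60.5, 54.8 and 68.8 CPM in the 4 non-responders. The groups did not overlap, and the untreated library had 17.0 CPM. It stood at -1.26 on the log2 scale (SE 0.21, edgeR adjusted p = 0.0149), and it passed whichever single library was left out.

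Ifngr1, the ligand-binding receptor chain, also did not overlap, with a lowest level of 16.05, a median of 22.6 and a highest level of 66.1 CPM in responders and 106, 98.8, 74.2 and 106 CPM in non-responders, against 17.8 CPM in the untreated library. It stood at -1.60 on the log2 scale (SE 0.37, edgeR adjusted p = 0.0278). Socs1, the inhibitor of the pathway's kinases, was lower at -2.03 on the log2 scale (SE 0.44, edgeR adjusted p = 0.0225), with 0.795 ± 0.213 CPM in responders and 3.27 ± 2.36 CPM in non-responders (SD, n = 6 and 4). Irf1, a transcription factor that acts on the Ciita promoter, was lower at -0.57 on the log2 scale (SE 0.14, edgeR adjusted p = 0.0296), with 37.2 ± 5.504 CPM in responders and 55.3 ± 8.77 CPM in non-responders.

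The receptor chain Ifngr2 and the kinases Jak1 and Jak2 did not pass, at -0.34, -0.00 and 0.17. Among the fits without 1 library, Ifngr1 ran between -1.94 and -1.45, Socs1 between -2.34 and -1.50 and Irf1 between -0.65 and -0.49, all on the log2 scale, but not all of these fits passed. Ifngr1 missed the threshold without responder 1, 2, 3 or 5 or non-responder 1 or 2 (edgeR adjusted p up to 0.0774), Socs1 without responder 1, 2 or 5 or non-responder 2 (up to 0.0745), and Irf1 without responder 1, 3 or 5 or non-responder 2 or 4 (up to 0.101). Socs1 also missed it in limma-voom (adjusted p = 0.0593), Ifngr1 with no filter on low counts (edgeR adjusted p = 0.0538) and Irf1 with sums of exon counts (edgeR adjusted p = 0.0706). Without both responder 3 and non-responder 1, Ifngr1 missed it (edgeR adjusted p = 0.0943), while Nlrc5, Socs1 and Irf1 passed. With the title number as a covariate in edgeR none of the 4 passed, with adjusted p-values between 0.413 and 0.606. The log2 fold change was then -1.15 for Nlrc5, -2.43 for Socs1, -0.51 for Irf1 and -0.87 for Ifngr1. In that fit 0 genes of the whole table were higher and 1 lower, and the group and the title number cannot be told apart by it.

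**Figure D4:**
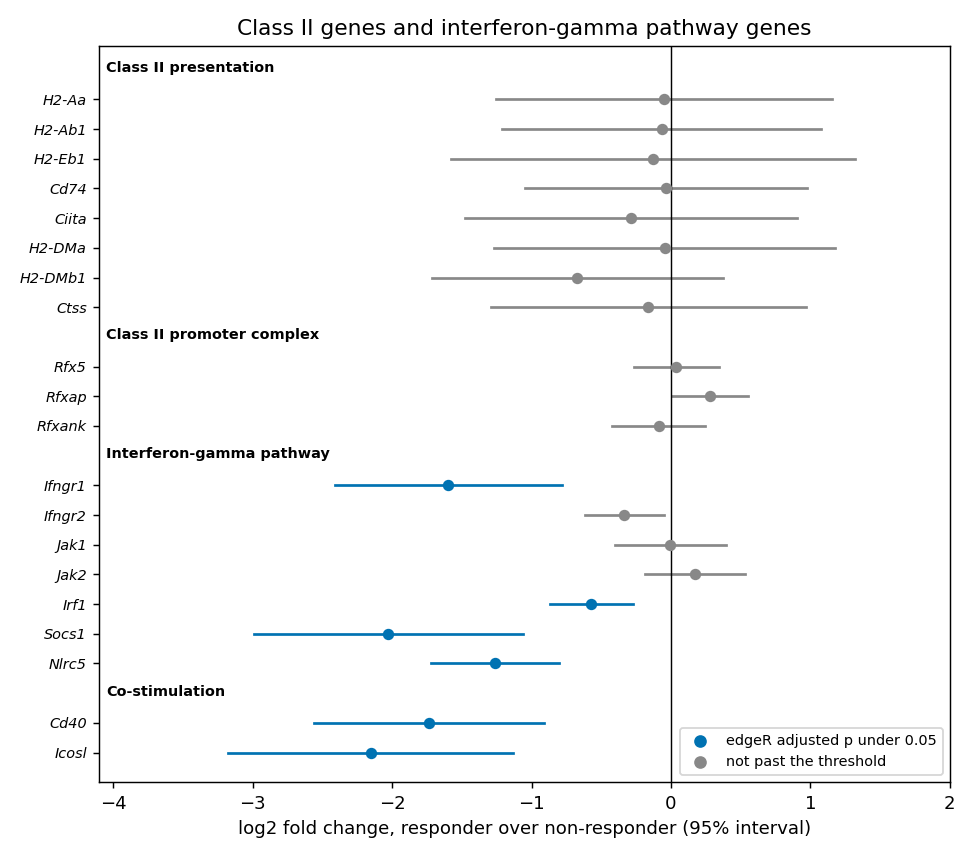
log2 fold change of responders over non-responders with its 95% interval (edgeR) for the class II genes, the RFX complex, interferon-gamma pathway genes and a pair of co-stimulation genes, with blue for an adjusted p under 0.05. All 8 class II intervals cross 0, while Ifngr1, Irf1, Socs1, Nlrc5, Cd40 and Icosl lie below 0.

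The factors that assemble with Ciita on class II promoters gave no call. Of 16 tested genes of class II transcription none passed by edgeR, and 3 had an unadjusted p under 0.05, against 27.3% of all genes. DESeq2 called 1, limma-voom with quality weights 1 and limma-voom without weights none. Over all genes these fits called 1396, 1621 and 901 higher and 1661, 2021 and 1105 lower, in that order. The RFX subunits Rfx5, Rfxap and Rfxank had log2 fold changes of 0.04, 0.28 and -0.09. The most abundant genes of the list, the acetyltransferases Kat2b, Ep300 and Crebbp, had log2 fold changes of 0.30, 0.25 and 0.17. The summed CPM of the list ran between 393 and 425 in responders and between 307 and 409 in non-responders, with 399 in the untreated library.

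Of 17 other tested genes of the class II pathway, none passed by edgeR. An unadjusted p under 0.05 was found for 6, against 27.3% of all genes. DESeq2 called 3 of them and limma-voom with quality weights 3. Over all genes DESeq2 called 1396 higher and 1661 lower, and limma-voom with quality weights 1621 higher and 2021 lower. Leaving out responder 3 or non-responder 1 gave 1 call each, and leaving out both gave 5. Over all genes these fits called 377, 818 and 566 higher and 619, 894 and 811 lower, in that order. The median log2 fold change of the 17 genes was -0.06. The lysosomal proteases Ctsb and Ctsd and the intramembrane protease Sppl2a, which removes the last invariant chain stub, were the most abundant, with log2 fold changes of -0.17, -0.08 and 0.22. Ifi30, the thiol reductase of antigen processing, averaged 12.3 ± 7.10 CPM in responders and 13.8 ± 1.99 CPM in non-responders (SD, n = 6 and 4). H2-DMb2, the paralog that shares sequence with H2-DMb1, had 2.13 ± 1.21 CPM in responders and 3.15 ± 1.47 CPM in non-responders. H2-Eb2 and Cst7 were too scarce to test.

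Of 7 tested genes that serve the contact with T cells, 2 were lower in responders and none higher. Over all tested genes 5.82% were lower. Only these 2 had an unadjusted p under 0.05, a level that 27.3% of all genes reached. Cd40, through which helper T cells activate antigen-presenting cells, did not overlap, with 1.19 ± 0.597 CPM in responders, 3.94 ± 1.27 CPM in non-responders (SD, n = 6 and 4) and 0.655 CPM in the untreated library. Its log2 fold change was -1.73 (edgeR adjusted p = 0.0225). Icosl, the ligand of the T cell receptor ICOS, overlapped between the groups, with 1.28 ± 0.591 CPM in responders and 5.70 ± 3.70 CPM in non-responders. For Icosl the log2 fold change was -2.15 (edgeR adjusted p = 0.0225). Both lost the threshold without responder 2, responder 5 or non-responder 2 and in the fit with the title number. Icosl also lost it without responder 1. Over the fits without 1 library the edgeR adjusted p reached 0.0796 for Cd40 and 0.0758 for Icosl. Over the same fits Cd40 ran between -1.92 and -1.50 and Icosl between -2.43 and -1.72 on the log2 scale. With the title number they stood at -0.98 and -2.04. Without both responder 3 and non-responder 1 neither passed (edgeR adjusted p = 0.0511 for Cd40 and 0.0693 for Icosl).

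The reads of H2-Eb1 lay unevenly along the gene. Exon 2 (chr17:34309591-34309860), which codes for the peptide-binding domain, held 58.4 ± 12.9% of the exon reads in responders and 43.2 ± 8.0% in non-responders (SD, n = 6 and 4), while it makes up 22.8% of the length. The untreated library had 41.0% there. Exon 2 of H2-Ab1, with 22.5% of the length, held 15.5 ± 1.64% in responders and 13.3 ± 3.08% in non-responders. The lowest H2-Eb1 share of any library, 36% in non-responder 1 (9 of 25 reads, exact 95% interval 18% to 57.5%), was above the highest H2-Ab1 share, 17.3%. The interval covers counting error only. FVB/NJ and the reference strain carry different H2 haplotypes, and reads of related genes at this exon were not tested.

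Of 43 exon shares over the 8 genes, none differed between the groups after adjustment (two-sided exact permutation test, smallest adjusted p = 0.410), and none had an unadjusted p under 0.05. With 210 splits a single share could reach an adjusted p of 0.205 at best, so this family could pass only if several shares differed. The alternative exon of Cd74, 192 bases at chr18:60811294-60811485 that give the longer form of the invariant chain, was examined after the data were seen. Its read density relative to the flanking exons was 0.231 ± 0.0156 in responders, 0.201 ± 0.0114 in non-responders (SD, n = 6 and 4) and 0.231 in the untreated library. The values overlapped, with responder 6 at 0.211 and non-responder 3 at 0.217. The log2 difference was 0.20 (unadjusted two-sided exact permutation p = 0.019), and 0.18 without non-responder 1 (unadjusted exact permutation p = 0.0357). As a share of the Cd74 exon reads, the same exon was among the 43 that did not pass (exact permutation p = 0.0571, adjusted p = 0.410).

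**Figure D5:**
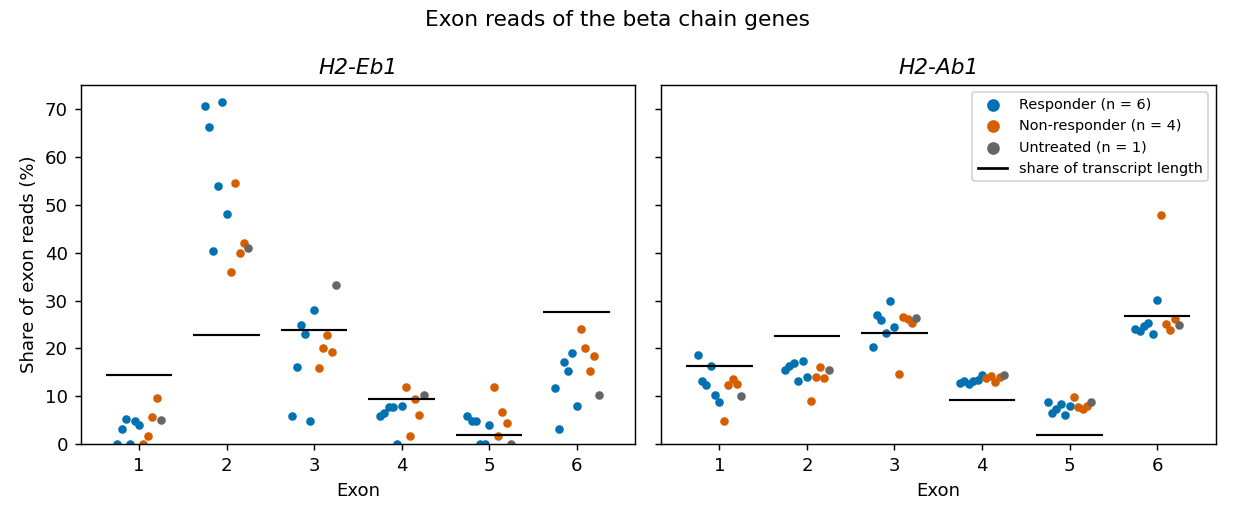
Share of exon reads in percent for each exon of the beta chain genes H2-Eb1 (left) and H2-Ab1 (right), with 1 point per library and a line at the share of the transcript length. Exon 2 of H2-Eb1 lies above its length share in every library, from 36% to 71.4%, and exon 2 of H2-Ab1 lies below it.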

How the data were processed

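Libraries for Illumina sequencing were made from TRIzol-extracted liver RNA; a small RNA kit is named for the indexing step, per the labels' protocols. The authors deposited raw read counts per gene and per exon, and RPKM values computed on a listed coding length, per the file headers. FastQC and the mm10 build are named in the submitters' processing notes, and no aligner, counter, annotation or use of strand is named (not given in the sources used here). Both the class II genes and the lists were chosen with earlier results of these data known.

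The 10 treated libraries were compared as 6 responders against 4 non-responders in edgeR 4.0.16 (R 4.3.3, filterByExpr, TMM, robust quasi-likelihood F test, Benjamini-Hochberg adjusted p under 0.05 over 17610 genes), a procedure tested on simulated data. The untreated library entered no test. Alternatives were other scalings and filters, DESeq2 1.42.0, limma 3.58.1 (voom, with and without quality weights), the title number as a covariate, sums of exon counts and leaving out each library. Ratios (prior of 0.5 counts), exon shares (exons averaging at least 10 counts, a read being counted in each exon it crosses) and the Cd74 exon were tested by exact permutation in scipy 1.17.1. Named from each list were the genes past the threshold, up to 5 by smallest p, or the 3 with the highest mean CPM where none passed; the other genes of these lists named here were chosen after their values were seen. Gene IDs matched GENCODE M21 for 42462 of 43346 genes. Depths are given with the results and limit H2-Eb1, H2-DMb1 and H2-DMa most. The values of 1 list gene are not reported here.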

Additional observations from a re-analysis of the deposited data

Results flagged for a closer look

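Values far from the rest of their own group are listed here, and 12 of 60 groups of values examined held one, where chance gives about 1 in 20. Most belong to responder 3, whose CPM stood far above the other 5 responders for H2-Aa (142.8), H2-Ab1 (103.7), H2-Eb1 (5.129), Cd74 (350.7), Ciita (14.74), H2-DMa (17.21) and Ctss (74.22). These 7 genes vary together, so they are not separate events. The summed dendritic cell markers of responder 3, 41.15 CPM, were likewise above those of the other responders. In responder 1 the log2 ratio of Cd74 to Itgax, 9.643, was far above the rest of its group. Among non-responders, replicate 1 was far below the others for Ctss (9.487 CPM) and for the summed Kupffer cell and macrophage markers (126.5 CPM), and replicate 2 was above the others for the summed genes that serve the contact with T cells (21.98 CPM). The part that cell composition, RNA quality or the sampled piece of liver had in these values was not tested.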

How the results depend on the processing

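No paired analysis was possible because the labels give the groups no shared replicate numbers. Counts over the whole table depended strongly on the fit: against 723 genes higher and 1025 lower, DESeq2 gave 1396 and 1661, limma-voom with quality weights 1621 and 2021, the fit with the title number 0 and 1, and leaving out 1 library between 38 and 836 higher and between 41 and 1158 lower, the lowest without non-responder 2. No class II gene was called higher under any of 22 alternatives. The number called lower was 0 in 20 of them, 1 (H2-DMb1, -1.17) under limma-voom with quality weights and 2 (H2-DMb1 and Ctss) without responder 3 and non-responder 1 together. Directions near 0 were not stable. With 1 library left out, the log2 fold change ran between -0.60 and 0.16 for H2-Aa, -0.63 and 0.14 for H2-Ab1, -1.02 and 0.13 for H2-Eb1, -0.44 and 0.17 for Cd74, -0.73 and 0.15 for Ciita, and -0.72 and 0.27 for H2-DMa, the lowest of each without responder 3. H2-DMb1 ran between -1.12 and -0.30 and Ctss between -0.63 and -0.02. The sign also turned for Ciita with the title number (0.26) and for H2-DMa with sums of exon counts (0.0207). On RPKM 1 ratio passed, Cd74 to Itgax. With 1 library left out 0 passed, where a single ratio could not go below an adjusted p of 0.0794. The log2 differences that crossed 0 with 1 library left out were those of Cd74 to Ptprc (-0.176 to 0.0570), Ciita to Cd74 (-0.25 to 0.15), H2-Aa to H2-Ab1 (-0.0401 to 0.162), Ctss to Cd74 (-0.210 to 0.0179) and Cd74 to Emr1 (-0.92 to 0.000109). All 28 pair correlations also passed over 11 libraries. The exon shares passed in 0 of 11 alternatives, in which a single share could not pass. The depth limits H2-Eb1 most, with 13 to 246 exon reads per library.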

Other observations

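The marker gene Marco, a scavenger receptor of resident macrophages, varied widely among responders. It had 11.9 ± 17.6 CPM there and 3.41 ± 1.79 CPM in non-responders (SD, n = 6 and 4), and it was chosen after its values were seen. Responder 3 had 45.0 CPM and responder 2 had 18.8 CPM, while the other 4 responders had between 1.067 and 2.62 CPM. Its log2 fold change of 1.80 did not pass (edgeR adjusted p = 0.334). The pseudogene H2-Ea-ps, at the locus of the I-E alpha chain, was read at 1.04 ± 0.440 CPM in responders, 1.04 ± 0.448 CPM in non-responders and 0.593 CPM in the untreated library.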
